A study of Canis lupus familiaris with 10 samples.

Results

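GAD1, GAD2, SLC32A1, GABRR1, GABRB2, GABBR1 and GLRB, 7 genes of GABA and glycine transmission, were followed through the neural retina of dogs with glaucoma and of healthy dogs. They were chosen by name, with earlier results of these data known. All probe sets were taken whose only gene symbol in the array annotation was 1 of these 7. That gave 11 probe sets among the 42924 on the array besides array controls, and every one of the 7 genes had at least 1. Retinal RNA was measured on 1 Affymetrix Canine genome 2.0 array per dog, without pooling, in 5 dogs with glaucoma and 5 healthy control dogs. The dogs with glaucoma were a Shiba Inu aged 5 years, a Shiba Inu aged 14 years, a Basset Hound aged 5 years, a Basset Hound aged 7 years and a Dalmatian aged 9 years, and the controls were 5 Beagles, each aged 4 years.

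Breed lay wholly within a group, all controls had 1 age, and every dog with glaucoma had received pressure-lowering eye drops that the controls had not. The control dogs were euthanized for other reasons, whereas the eyes with glaucoma were enucleated from clinic patients. Disease, breed, age, medication and the way the eye was obtained therefore cannot be told apart. The eyes with glaucoma were clinical cases of primary, closed-angle disease removed to relieve pain, and the ages above are those of the sample labels; the study's own list of animals makes the older Shiba Inu and the Dalmatian younger. Each dog was a separate animal, so the spread given is that between dogs.

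GABA and glycine are the inhibitory transmitters of the retina. Amacrine cells, the interneurons of the inner retina, release one or the other onto bipolar cell terminals, ganglion cells and each other, and GABA is also used by horizontal cells in many mammals. GABA is made from glutamate by the glutamate decarboxylases GAD1 (GAD67) and GAD2 (GAD65), and both transmitters are loaded into vesicles by the transporter SLC32A1 (VGAT). On the receiving cell, GABA opens chloride channels of the GABA-A class, to which the beta subunit GABRB2 belongs, and those built from rho subunits such as GABRR1, which in the mammalian retina are best known from bipolar cell terminals. GABBR1 is a subunit of the metabotropic GABA-B receptor, and GLRB is the beta subunit of the glycine receptor, which ties that receptor to the scaffold protein gephyrin.

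Values are levels after robust multi-array averaging (RMA) on the log2 scale, so that a difference of 1 is a 2-fold change. A probe set was tested where its level was above 7 in at least 2 of the 10 arrays, the study's definition of an expressed gene. Glaucoma was set against control with limma, which fits a linear model and steadies each variance with that of the other probe sets. A call required p under 0.05 after Benjamini-Hochberg adjustment over the 18416 probe sets tested. Of the 11 member probe sets, 5 were tested, belonging to GAD1, GABRR1 and GLRB, and 6 stayed below the minimum.

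GAD1 and GABRR1 were lower in every glaucomatous retina than in any control retina, 7.83-fold and 5.56-fold on average, and GLRB was lower by a smaller step of 1.61-fold. Of the 5 tested probe sets, 4 were called lower in glaucoma and 0 higher, where 9.4% of all tested probe sets were called lower and 7.58% higher. At least 2-fold lower calls were made for 3 of the 5, against 3.12% over the array. In 4 of the 5 every glaucoma array lay below every control array, which held for 8.03% of all tested probe sets. The second GAD1 probe set and GABRR1 had 0 and 1 glaucoma arrays above the minimum, so both were tested because of their level in the controls, and these counts are given as a description. The 4 genes below the minimum were GAD2, SLC32A1, GABRB2 and GABBR1.

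**Figure D1:**
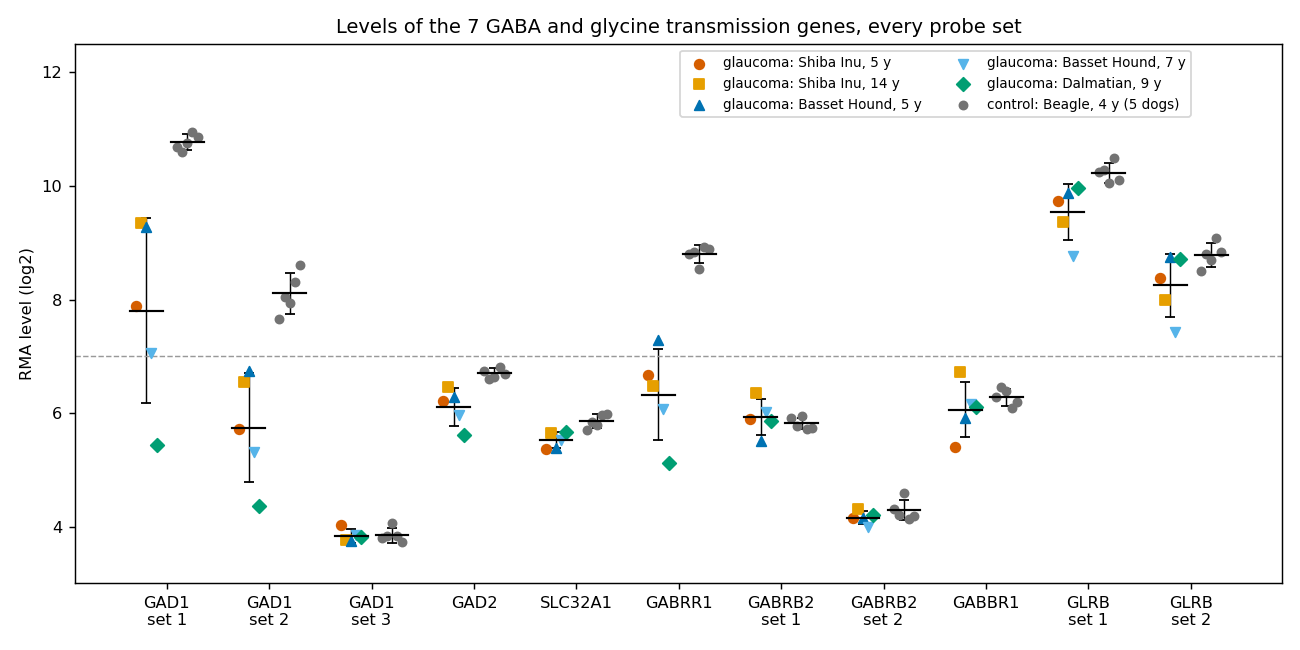
RMA level (log2, vertical axis) of the 11 member probe sets in each array, glaucoma at the left (coloured by dog) and control at the right (grey) of each column; horizontal bars are group means, error bars are SDs (n = 5 each), and the dashed line is the minimum of 7. Probe sets of 1 gene are numbered by their control mean. The glaucoma and control points are apart in GAD1 sets 1 and 2, GABRR1, GAD2, SLC32A1 and GLRB set 1, and overlap in the other 5 columns.

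GAD1, the enzyme that supplies most of the GABA in the cell body and processes, had the widest difference of the 7 genes. On its first probe set the glaucomatous retinas lay at 7.89 and 9.34 in the Shiba Inus aged 5 and 14 years, 9.27 and 7.07 in the Basset Hounds aged 5 and 7 years, and 5.43 in the Dalmatian, against 10.68, 10.60, 10.76, 10.95 and 10.85 in the control retinas. All 5 glaucomatous retinas were below all controls, with a gap of 1.26 between the nearest pair, and they were spread over 3.91 where the controls spanned 0.35.

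The mean level of GAD1 was 7.80 ± 1.63 in glaucoma and 10.77 ± 0.14 in control (SD, n = 5 each). The difference of -2.97 (SE 0.63, 95% interval -4.36 to -1.58) was a 7.83-fold lower level and was called (limma, adjusted p = 0.00916). Against the control mean, GAD1 was 40.3-fold lower in the Dalmatian, 13.0-fold lower in the older Basset Hound, 7.37-fold lower in the younger Shiba Inu, 2.82-fold lower in the younger Basset Hound and 2.69-fold lower in the older Shiba Inu. The level of 5.43 in the Dalmatian lay under the minimum of 7, where a fold change can be understated, because an RMA level holds the background of the array as well as the transcript. The fall was present in all 3 breeds, and its size differed between the dogs of a breed as well as between breeds. Without the Dalmatian the difference was -2.38 (adjusted p = 0.00586). Among the 7900 genes with a tested probe set and 1 symbol, GAD1 had the 13th lowest difference.

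The second GAD1 probe set moved the same way. It had levels of 5.72 and 6.54 in the Shiba Inus aged 5 and 14 years, 6.74 and 5.31 in the Basset Hounds aged 5 and 7 years and 4.36 in the Dalmatian, against 7.66, 8.04, 7.94, 8.32 and 8.61 in control. The groups were again apart, by 0.92, and the Dalmatian and the older Basset Hound were again the lowest. The difference was -2.38 (SE 0.40, 95% interval -3.26 to -1.50), 5.20-fold, with an adjusted p of 0.00267 by limma. Every glaucoma level was under the minimum, so this probe set was tested because of its control levels, and its fold can be understated. The remaining GAD1 probe set was below the minimum in all 10 arrays and did not move with the others, at 3.74 to 4.04 in glaucoma and 3.73 to 4.06 in control, a difference of -0.01 (95% interval -0.21 to 0.19).

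GAD2, the second glutamate decarboxylase, which is concentrated at nerve terminals, stayed below the minimum on its 1 probe set and was not part of the test. Its levels were 6.22, 6.46, 6.29, 5.97 and 5.62 in the glaucomatous retinas, in the same order of dogs, against 6.75, 6.60, 6.64, 6.82 and 6.70 in control. The groups did not overlap, with 0.14 between them, and the Dalmatian and then the older Basset Hound were lowest, the same 2 dogs as for GAD1. The difference was -0.59 (95% interval -0.90 to -0.28), 1.50-fold, and limma with all 42924 probe sets and no minimum gave an adjusted p of 0.0261.

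SLC32A1, the vesicular transporter shared by GABA and glycine, was also below the minimum. It lay at 5.37, 5.64, 5.39, 5.52 and 5.67 in glaucoma and at 5.70, 5.84, 5.79, 5.97 and 5.99 in control. The lowest control and the highest glaucomatous retina, that of the Dalmatian, were 0.03 apart. The difference was -0.34 (95% interval -0.54 to -0.13), 1.27-fold, with an adjusted p of 0.0467 by limma without the minimum. Levels this low can understate a fold change, as for GAD1 in the Dalmatian.

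GABRR1, the rho-1 subunit, fell in all 5 glaucomatous retinas with less spread than GAD1. Its probe set read 6.67 and 6.48 in the Shiba Inus aged 5 and 14 years, 7.28 and 6.07 in the Basset Hounds aged 5 and 7 years and 5.12 in the Dalmatian, against 8.80, 8.84, 8.53, 8.93 and 8.89 in control. The 2 groups were 1.25 apart, and only the younger Basset Hound was above the minimum.

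Mean GABRR1 was 6.32 ± 0.80 in glaucoma and 8.80 ± 0.16 in control (SD, n = 5 each). The difference of -2.48 (SE 0.32, 95% interval -3.18 to -1.77) was 5.56-fold and had the smallest adjusted p of the members, 0.00055 (limma). Per dog it was 12.8-fold lower than the control mean in the Dalmatian, 6.62-fold in the older Basset Hound, 5.00-fold in the older Shiba Inu, 4.37-fold in the younger Shiba Inu and 2.87-fold in the younger Basset Hound. Apart from the last, these folds rest on glaucoma levels under the minimum and can be understated in the same way. It had the 32nd lowest difference of the 7900 genes.

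GLRB, which anchors glycine receptors at the synapse, was called lower on 1 of its 2 probe sets. On the first, the levels were 9.74 and 9.37 in the Shiba Inus aged 5 and 14 years, 9.87 and 8.77 in the Basset Hounds aged 5 and 7 years and 9.96 in the Dalmatian, against 10.25, 10.28, 10.06, 10.48 and 10.10 in control. The groups were apart by 0.10, and here the Dalmatian was the highest of the glaucomatous retinas while the older Basset Hound was the lowest. Mean GLRB was 9.54 ± 0.49 in glaucoma and 10.23 ± 0.17 in control (SD, n = 5 each), a difference of -0.69 (SE 0.21, 95% interval -1.15 to -0.23) or 1.61-fold, with an adjusted p of 0.0459 by limma.

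That call was close to the threshold: it was lost in 14 of 23 alternative settings, among them a 2-fold minimum, with adjusted p between 0.0057 and 0.207 over all 23. With the mean of both its probe sets in place of the brighter one, GLRB differed by -0.61 and was not called (adjusted p = 0.0819). Leaving out the older Shiba Inu gave -0.65 (adjusted p = 0.0823), and leaving out a single control gave adjusted p of 0.0637 to 0.1025 for each of the 5 controls. The second GLRB probe set read 8.38, 7.99, 8.75, 7.43 and 8.72 in glaucoma, in the same order of dogs, against 8.50, 8.80, 8.70, 9.08 and 8.84 in control. The groups overlapped, the older Basset Hound was again lowest, and the difference of -0.53 (SE 0.24, 95% interval -1.06 to -0.01) did not pass (limma, adjusted p = 0.149).

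**Figure D2:**
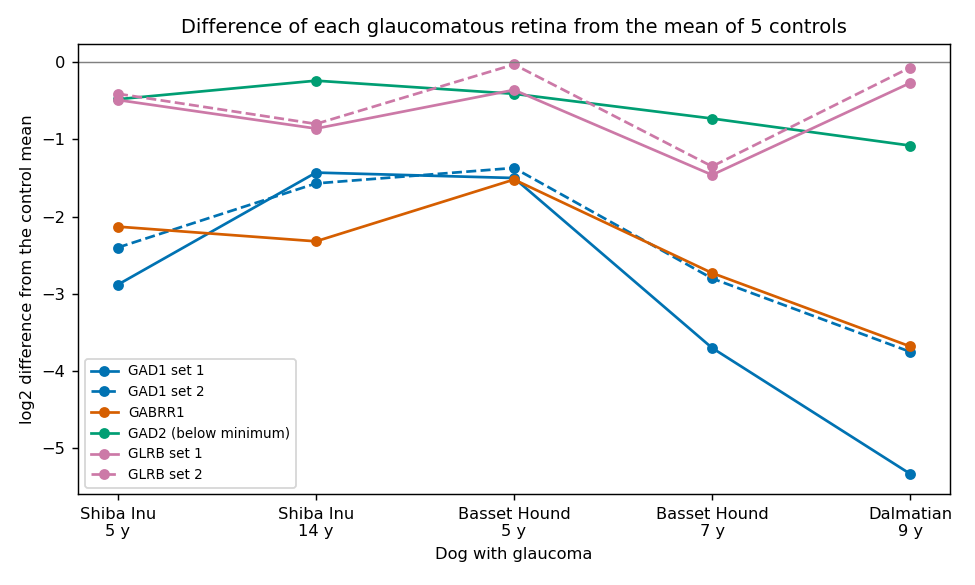
Difference of each glaucomatous retina from the mean of the 5 controls (log2, vertical axis) for the probe sets of GAD1, GABRR1, GAD2 and GLRB, with the 5 dogs along the horizontal axis; lines join the values of 1 probe set and carry no order of time. In the Dalmatian GAD1 set 1 was at -5.33 and GABRR1 at -3.68 while GLRB set 1 was at -0.27, whereas the older Basset Hound was low in all of them.

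The dogs thus differed in which genes were lowest. The Dalmatian had the lowest GAD1, GAD2 and GABRR1 of the 5 glaucomatous retinas, at -5.33, -1.08 and -3.68 from the control mean, but the highest GLRB on the first GLRB probe set, at -0.27. On the second, the younger Basset Hound was highest (-0.03), ahead of the Dalmatian (-0.07). The older Basset Hound, at -3.70 for GAD1, -0.73 for GAD2, -2.73 for GABRR1 and -1.46 for GLRB, was among the 2 lowest throughout these genes. With 1 retina per dog, this order was not tested.

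The remaining 2 receptor genes did not separate the groups. GABRB2, the GABA-A beta-2 subunit, read 5.90, 6.36, 5.50, 6.02 and 5.86 in glaucoma and 5.91, 5.78, 5.95, 5.72 and 5.74 in control on its brighter probe set, a difference of 0.11 (95% interval -0.19 to 0.41). Its other probe set lay at 3.99 to 4.31 in glaucoma and 4.13 to 4.60 in control, a difference of -0.13 (95% interval -0.35 to 0.10). GABBR1, the GABA-B subunit that binds the transmitter, read 5.40, 6.72, 5.92, 6.17 and 6.10 in glaucoma against 6.28, 6.46, 6.39, 6.09 and 6.20 in control. The older Shiba Inu was above all controls, the younger Shiba Inu and the younger Basset Hound were below them, and the difference was -0.22 (95% interval -0.66 to 0.21). All 3 of these probe sets were below the minimum, and the intervals do not show that levels were equal.

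The members sit in a wider pathway of 48 genes, listed by role and with the 7 members included. Of these, 12 genes were tested, 27 were below the minimum, and 9 had no probe set under their symbol in the annotation and are not reported. In the test, 6 of the 12, the members GAD1, GABRR1 and GLRB included, were called lower and 0 higher by limma, with 1 higher at an unadjusted p under 0.05, where 9.4% of all tested probe sets were called lower and 7.58% higher. The median difference was -0.27 over the 12 pathway genes and -0.01 over all 7900 genes. GABRR2 and GABBR2, both called lower, had 0 glaucoma arrays above the minimum, and GABRR1 had 1. These genes were tested because of their level in the controls, so the count and the median are given as a description. The shares are over probe sets, the count over genes.

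**Figure D3:**
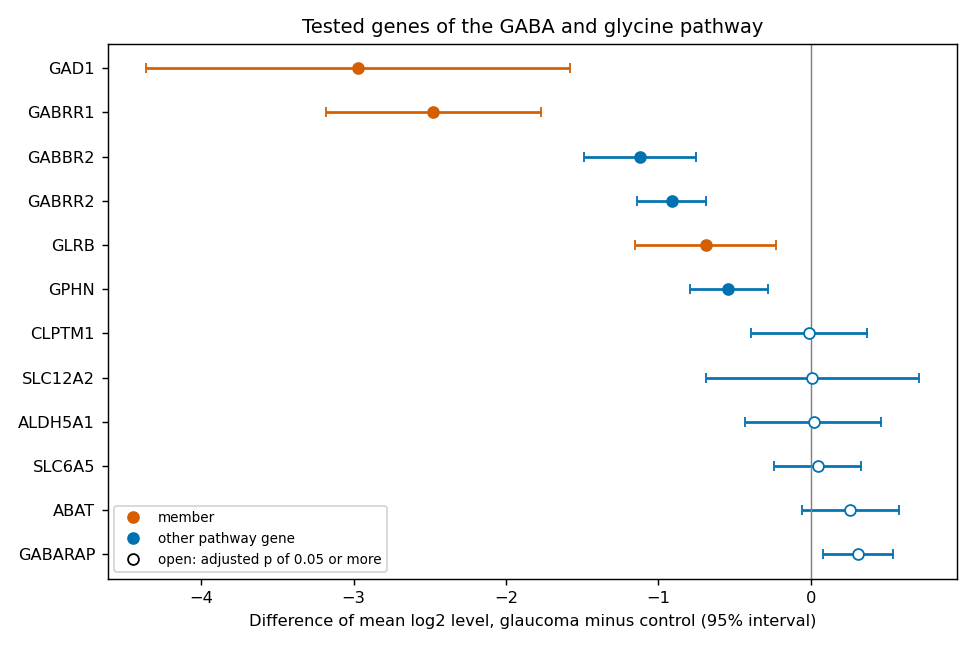
Difference of the mean log2 level, glaucoma minus control (horizontal axis), with its 95% interval, for the 12 tested pathway genes, the members in orange and the others in blue. Filled points have an adjusted p under 0.05; these lie between -2.97 and -0.54, and the 6 open points lie between -0.01 and 0.31.

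Besides the members, the lower genes were 2 receptor subunits and a scaffold. GABRR2, the rho-2 subunit and the immediate neighbour of GABRR1 among protein-coding genes in the RefSeq dog annotation, lay at 6.38 to 6.73 in glaucoma and 7.38 to 7.69 in control, a difference of -0.91 (SE 0.10, limma adjusted p = 0.000232). GABBR2, the GABA-B subunit that couples the receptor to G proteins, lay at 6.01 to 6.85 in glaucoma and 7.34 to 7.82 in control, a difference of -1.12 (SE 0.17, adjusted p = 0.00137). Both had 0 glaucoma arrays above the minimum and were tested because of their level in the controls. GPHN, the gephyrin scaffold that holds glycine and GABA-A receptors at the synapse, lay at 8.50 to 9.08 in glaucoma and 9.22 to 9.41 in control, a difference of -0.54 (SE 0.11, adjusted p = 0.00946), and was not called with age as a covariate (adjusted p = 0.0622).

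The other 6 tested genes of the pathway list gave no call. ABAT and ALDH5A1, which break GABA down in mitochondria, differed by 0.26 (adjusted p = 0.244) and 0.02 (adjusted p = 0.964) in the limma fit. SLC6A5, the neuronal glycine transporter, differed by 0.05 (adjusted p = 0.843), and SLC12A2, the chloride importer NKCC1, by 0.01 (adjusted p = 0.992). CLPTM1, listed for the trafficking of GABA-A receptors, differed by -0.01 (limma, adjusted p = 0.977). GABARAP, a trafficking protein first found through its binding to GABA-A receptors, was at 11.57 to 11.91 in glaucoma and 11.28 to 11.64 in control, a difference of 0.31 (adjusted p = 0.0671).

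Among the 27 pathway genes below the minimum, 14 had a difference below 0, and the highest level of any of them in any array was 7.06. Besides the members GAD2, SLC32A1, GABRB2 and GABBR1 these were SLC6A11, SLC6A12, SLC6A9, GABRA2, GABRA3, GABRA4, GABRA5, GABRA6, GABRG1, GABRG3, GABRD, GABRE, GABRP, GABRQ, KCTD8, KCTD12, KCTD16, GLRA1, GLRA2, GLRA3, GLRA4, NLGN2 and LHFPL4. All 4 alpha subunits of the glycine receptor were thus below the minimum in these retinas, so the glycine receptor was read through GLRB alone. Without the minimum, limma gave an adjusted p under 0.05 for 4 of the 27, which were GAD2, SLC32A1, GABRA2 and KCTD8, all lower. Over all 42924 probe sets, the same fit called 1983 lower and 1585 higher.

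The genes whose deviations from the control mean lay closest to those of a member over the 10 arrays were named by the smallest root mean square difference on the log2 scale. For GAD1 they were LAMP5 (0.398), the amacrine cell transcription factor TFAP2B (0.425) and NTNG1 (0.459). For GABRR1 they were the calcium channel subunit CACNA2D3 (0.168), RALYL (0.220) and the G protein subunit GNG13 (0.252), which is known from ON bipolar cells. For GLRB they were VAT1L (0.138), RNF180 (0.180) and STYXL1 (0.208).

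In a whole retina, fewer cells of a type and less RNA per cell cannot be told apart, and markers of the cells that use these genes moved too. Summed intensities of markers below are over every marker of a list with a probe set, tested or not. Of 10 amacrine cell markers 4 were tested and 3 were lower (TFAP2A, TFAP2B and CALB2). The other tested marker, PAX6, differed by -0.23 and was not called (limma, adjusted p = 0.581). The 10 summed to 1264 to 2858 in glaucoma and 2719 to 4026 in control. PAX6, at log2 levels of 9.54 to 11.16 in glaucoma and highest in the younger Shiba Inu, made up most of the glaucoma sum. The remaining 6, TFAP2C, CHAT, TH, STX1A, DAB1 and SLC18A3, were below the minimum. The median deviation of the 4 tested markers was -2.08 in the Dalmatian, -2.01 in the older Basset Hound and -1.93 in the younger Shiba Inu, the 3 dogs with the lowest GAD1, and -1.03 and -0.90 in the younger Basset Hound and the older Shiba Inu.

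Of 10 bipolar cell markers 4 were tested and 3 were lower (TRPM1, CABP5 and PCP2), with PRKCA, GRM6, VSX1, GRIK1 and SCGN below the minimum. The other tested marker, OTX2, differed by -0.22 and was not called (limma, adjusted p = 0.325). The 9 with a probe set summed to 3310 to 7665 in glaucoma and 11748 to 15106 in control. OTX2, at log2 levels of 11.29 to 11.94 in glaucoma, made up a large part of the glaucoma sum. The median deviation of the 4 tested bipolar cell markers was lowest in the Dalmatian (-3.98) and least low in the younger Basset Hound (-1.22). These were also the dogs with the lowest and the highest GABRR1. Horizontal cell markers were lower for 3 of 3 tested, CALB1 (-3.52), ONECUT2 (-0.68) and PROX1 (-0.64). All 5 of the list, ONECUT1 and LHX1 below the minimum included, summed to 281 to 1161 in glaucoma and 2282 to 3246 in control. CALB1, at log2 levels of 10.88 to 11.47 in control, made up most of the control sum. Ganglion cell markers were lower for 5 of 8 tested, with 1 higher. The 11 with a probe set, POU4F1, POU4F2 and POU4F3 below the minimum included, summed to 7151 to 11531 in glaucoma and 18023 to 30853 in control. The higher marker was SNCG on its brighter probe set (2.52), while its other tested probe set differed by -2.57. The brighter set, at log2 levels of 11.35 to 12.79 in glaucoma, made up a large part of the glaucoma sum. The horizontal and ganglion cell lists followed the dogs too, with medians again over tested markers alone. The horizontal cell medians were lowest in the same 3 dogs as the amacrine ones. They were -0.97 in the older Basset Hound, -0.90 in the younger Shiba Inu and -0.81 in the Dalmatian. The ganglion cell medians had the same extremes as the bipolar ones (-3.69 in the Dalmatian and -1.22 in the younger Basset Hound). No match was thus particular to 1 cell type. The part of these cell types in the differences of GAD1, GABRR1 and GLRB was not tested.

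Other cell types in the sample moved less evenly. Muller glia markers were higher for 2 of 7 tested (54766 to 69486 in glaucoma, 45504 to 54480 in control) and microglia and macrophage markers for 4 of 5 (3506 to 7983 in glaucoma, 1028 to 1521 in control). Pigment epithelium markers gave 0 calls of 7 and summed to values from 5135 to 46473 in glaucoma and from 3313 to 34284 in control, with high levels in the younger Shiba Inu and in control replicate 4. Oligodendrocyte markers gave 0 calls, with 1 tested, and the 3 with a probe set, MBP and MOG below the minimum included, summed to 235 to 325 in glaucoma and 254 to 326 in control.

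The array of the younger Shiba Inu stood apart. Its median correlation with the other glaucoma arrays was 0.863, where the other 4 glaucoma arrays reached 0.926 to 0.955 and the controls 0.962 to 0.976, and its 6 tested rod markers had a median deviation of -3.74, against -0.94 to -0.04 in the other glaucomatous retinas. Without this array the difference was -2.99 for GAD1 (adjusted p = 0.0135), -2.56 for GABRR1 (adjusted p = 0.000675) and -0.74 for GLRB (adjusted p = 0.0444), by limma. Signal at the 3' end over that at the 5' end of actin and GAPDH control probe sets, a ratio that can move with RNA quality, was 1.45 ± 0.07 in glaucoma and 1.52 ± 0.24 in control on the log2 scale (SD, n = 5 each), with p = 0.611 in an exact permutation test, two-sided. The arrays had a median intensity between 77.1 and 80.7, with between 15910 and 16315 probe sets above the minimum.

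**Figure D4:**
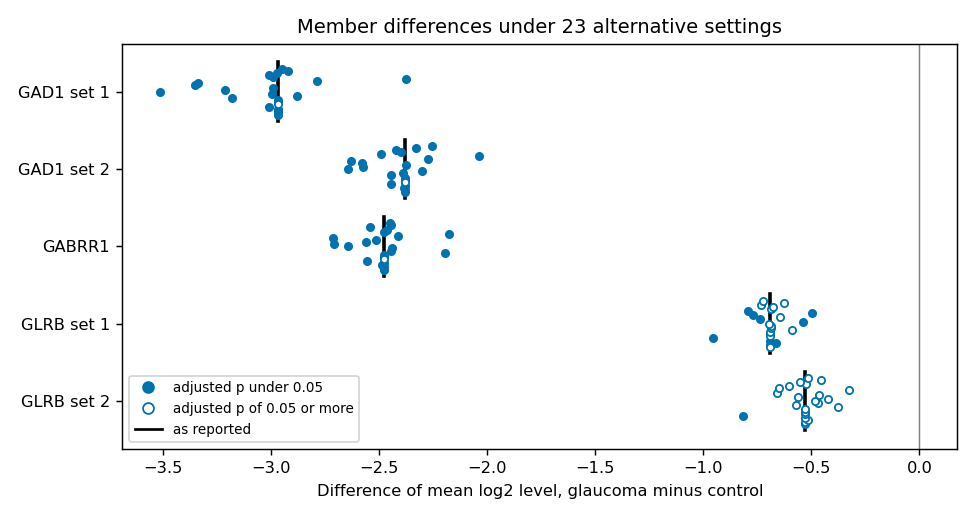
Difference of the mean log2 level, glaucoma minus control (horizontal axis), of the 5 tested member probe sets under each of 23 alternative settings; filled points have an adjusted p under 0.05, open points do not, and the vertical bars are the reported values. GAD1 set 1 stays between -3.51 and -2.38 and GABRR1 between -2.71 and -2.17, each with 1 open point, while most points of GLRB set 1 are open.

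GAD1 and GABRR1 kept their direction and their call in 22 of 23 alternatives, between -3.51 and -2.38 for the first GAD1 probe set and between -2.71 and -2.17 for GABRR1. The exception for both was the exact Wilcoxon rank sum test, which the study's methods name beside the significance analysis of microarrays (SAM), a permutation method that was not run here. With 5 dogs against 5 its smallest p is 0.00794, which GAD1, GABRR1 and GLRB all reached on their leading probe sets and which adjusted to 0.0534 over the array, so that test called 0 probe sets in either direction, with 4841 at an unadjusted p under 0.05.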

How the data were processed

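The authors normalized the raw array data by RMA, and what they deposited is a linear-scale intensity per probe set; log2 was taken of it here. No further normalization was applied, and scan dates or other batches were not given in the sources used here. Of 43035 probe sets, 111 array controls were left out. Gene symbols came from the platform annotation (1 symbol for 29254 probe sets, several for 439, none for 13231), and the update through gene identifiers changed none of the members' symbols. Tested probe sets had log2 above 7 in at least 2 arrays, the methods' rule. The main fit was limma 3.58.1 in R 4.3.3 with all 10 arrays and no covariate, adjusted by Benjamini-Hochberg over 18416 probe sets. The methods' fold minimum of 2 and their Wilcoxon test were alternatives. For counts of genes, the tested probe set of highest mean stood for its gene. Intervals are 95%. The study's own fold changes and q-values were not used.

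The 7 genes, the pathway list and the cell type markers were chosen with earlier results of these data known. Every member is named with all its probe sets, every tested pathway gene with its difference, and for each tested member the 3 genes of closest pattern. Alternatives were no minimum, the mean of a gene's tested probe sets, a minimum in 5 arrays, quantile normalization, limma's trend and robust options, array weights, the replicate number as a block, age or the 3' to 5' ratio as a covariate, removal of both Shiba Inus, of both Basset Hounds and of each array in turn. The test was checked on simulated data with 18416 probe sets and the same group sizes. Of 50 probe sets lowered by 3, 2 and 1 on the log2 scale, 49, 50 and 38 were called, and of 18216 unchanged ones 11 were. The simulated probe sets were independent and had the same SD in both groups, whereas GAD1 had an SD of 1.63 in glaucoma and 0.14 in control. The check therefore does not give the rate of false or missed calls in these data. The annotation used for gene neighbours was that of RefSeq's UU_Cfam_GSD assembly; the build behind the array is not given in the sources used here, and no coordinates are printed. Arrays have no read depth, and their number limits the precision.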

Additional observations from a re-analysis of the deposited data

Results flagged for a closer look

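Dixon's test was run on each of the 11 member probe sets in each group, 22 tests in all, and 0 found a dog far from the rest of its group.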

How the results depend on the processing

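The direction of the 5 tested member probe sets did not reverse in any of 23 alternatives. GLRB lost its call without a minimum (adjusted p = 0.063), with age (0.207), with the replicate number as a block (0.112), with the 3' to 5' ratio as covariate (0.0709, or 0.0807 with the Cfa-actin and Cfa-gapdh families alone, a choice made after seeing the data), without the Shiba Inus (0.0945), by the Wilcoxon test (0.0534), at 2-fold or more, and without the older Shiba Inu or any single control. Its second probe set passed only with array weights (-0.82, adjusted p = 0.0212).

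The count of member genes called lower was 3 and stayed at 2 to 3 with 1 array left out; with the mean of a gene's tested probe sets it was 2, GLRB being lost (-0.61, adjusted p = 0.0819), and pathway genes called lower were 5. The count of higher member genes stayed at 0. Pathway genes called lower were 6 (5 to 6 with 1 array left out, 3 at 2-fold or more), and those called higher were 0 (0 to 1 with 1 array left out). GABARAP was the 1 gene called higher under quantile normalization, the trend and robust options, array weights, without the Basset Hounds and without the younger Basset Hound. Over all probe sets, 1732 were lower and 1396 higher; with 1 array left out these were 1122 to 2121 and 866 to 1605, the lowest in both cases without control replicate 2. With array weights they were 2811 and 2095, and at 2-fold or more 574 and 544. The lower count was 886 with age as a covariate, whose slope rests on the glaucoma dogs alone, and 1114 with the block. The Wilcoxon test gave 0 member genes, 0 pathway genes and 0 probe sets lower, and 0 probe sets higher.

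Replicate numbers did not pair the dogs: the correlations of same-numbered deviations were 0.07, -0.04, -0.02, -0.21 and -0.24. In the paired fit with the block, adjusted p was 0.021 for GAD1 and 0.00514 for GABRR1.

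Low levels limit the 4 member genes below the minimum, GAD2, SLC32A1, GABRB2 and GABBR1. Each has 1 or 2 probe sets, and no detection calls were used here.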
